A study of Canis lupus familiaris with 6 samples.

Results

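The genes described here are the mammary hormone receptors and luminal regulators ESR1, ESR2, PGR, PRLR, GHR, GATA3, FOXA1, ELF5 and NR3C1. Every probe of a canine Agilent array that is not a control and carries one of these gene symbols was taken, which gave 11 probes for the 9 genes, of 43603 such probes on the array. The cells were 3 lines from mammary tumors of dogs. P114 came from an anaplastic cancer, CMT-U27 from a simple carcinoma and CMT-U309 from a spindle cell tumor. Each was grown alone (monoculture) or sharing medium with myeloid-derived suppressor cells (MDSCs), which had been sorted from blood of dogs without disease and sat in a transwell insert. The labels give co-culture for at least 72 h and the methods a shorter time. Co-culture and monoculture RNA of the same line were labelled with different dyes and hybridized to the same array, and each line had 2 arrays of opposite dye orientation, so that there were 6 arrays, 12 channels and 2 RNA samples per line. Each line is 1 culture model of a tumor type, and each lay on its own slide, so that line and slide cannot be told apart. In bulk RNA such as this, fewer cells with a transcript and less of it per cell cannot be told apart.

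Estrogen and progesterone act through ESR1 (estrogen receptor alpha), ESR2 (estrogen receptor beta) and PGR (progesterone receptor), nuclear receptors that bind DNA once they hold their hormone. PRLR (prolactin receptor) and GHR (growth hormone receptor) are cell surface receptors that signal through JAK2 and STAT5. GATA3 and FOXA1 are transcription factors that maintain luminal cells and open chromatin for the estrogen receptor. ELF5 is an ETS factor of luminal progenitors. NR3C1 is the glucocorticoid receptor, which most cells carry and which takes part in milk gene induction.

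A level on these arrays is the signal of a single 60-base probe. The sequences of the coding probes behind the results are printed 5′ to 3′ because a level can speak only for transcripts that hold that stretch. The second ESR2 and NR3C1 probes and the PGR probe are given by position only.
ESR1: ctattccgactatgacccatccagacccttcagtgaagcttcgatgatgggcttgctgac
ESR2, first probe: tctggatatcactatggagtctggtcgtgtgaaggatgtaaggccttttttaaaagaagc
PRLR: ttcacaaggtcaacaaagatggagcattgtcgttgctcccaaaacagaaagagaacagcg
GHR: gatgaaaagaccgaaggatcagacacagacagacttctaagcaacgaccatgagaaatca
GATA3: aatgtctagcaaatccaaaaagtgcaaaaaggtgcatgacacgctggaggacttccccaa
FOXA1: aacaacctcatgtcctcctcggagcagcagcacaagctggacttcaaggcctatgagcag
ELF5: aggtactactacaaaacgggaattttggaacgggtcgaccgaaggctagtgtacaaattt
NR3C1, first probe: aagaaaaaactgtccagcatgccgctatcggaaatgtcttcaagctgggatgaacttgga

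The first ESR2 and the first NR3C1 probe read the part of the message for the DNA-binding domain, and the ELF5 probe that for the ETS domain. The ESR1 probe reads the start of the ligand-binding domain, and those of PRLR and GHR read intracellular parts. On the canFam2 build that the scanner files use, the ESR1 probe lies at chr1:45254197-45254256 on the plus strand and the PGR probe at chr21:3551257-3551316 on the plus strand. The ESR2 probes lie on the minus strand at chr8:41730343-41730402 and chr8:41680768-41680827, 49516 bases apart. PRLR is read at chr4:76469277-76469336 (plus) and GHR at chr4:70223284-70223343 (minus). GATA3 is read at chr2:30912991-30913050 (minus) and FOXA1 at chr8:19085935-19085994 (minus). The 60 bases of the ELF5 probe are spread over 518 bases at chr18:36393780-36394297 (plus), so that their match to the genome is not contiguous. The NR3C1 probes lie at chr2:40995897-40995956 and chr2:40976795-40976854 (both minus), 19043 bases apart. Exon boundaries and UTRs of this build were not used here.

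Levels are given as log2 of the processed signal once the median of every channel had been brought to a shared value, and a level of one probe was never set against that of another. Feature Extraction, the scanner software, flags a spot as well above background when its signal clears the spread of the background. By this flag 4 of the 11 probes (GATA3, FOXA1 and both NR3C1 probes) were measured in all 12 channels, and 2 (ESR1 and the first ESR2 probe) in none. Between 53.0% and 81.0% of all spots were well above background, depending on the channel. Where co-culture RNA carried Cy3 (3 arrays), the share was lower in the co-culture channel (53.0% to 61.2%) than in the monoculture channel (69.0% to 75.3%). Where it carried Cy5, the share of the co-culture channel was also lower in CMT-U27 (61.3% against 77.0%) and CMT-U309 (76.9% against 81.0%) and was higher in P114 (65.4% against 55.2%). The log2 ratios of the P114 arrays ran against each other over all probes (Pearson r = -0.39). The pair correlated at 0.26 in CMT-U27 and at -0.09 in CMT-U309. Between lines, arrays with co-culture RNA in Cy3 correlated at 0.47 to 0.61. Those with it in Cy5 correlated at -0.22 to 0.40. A mean without 1 array holds its line in 1 dye orientation only, so that dye does not cancel in that line. Ratios of co-culture over monoculture are therefore given array by array, and also without the first P114 array, the one that stood apart. Whether the dyes of that array are as labelled was not tested.

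**Figure D1:**
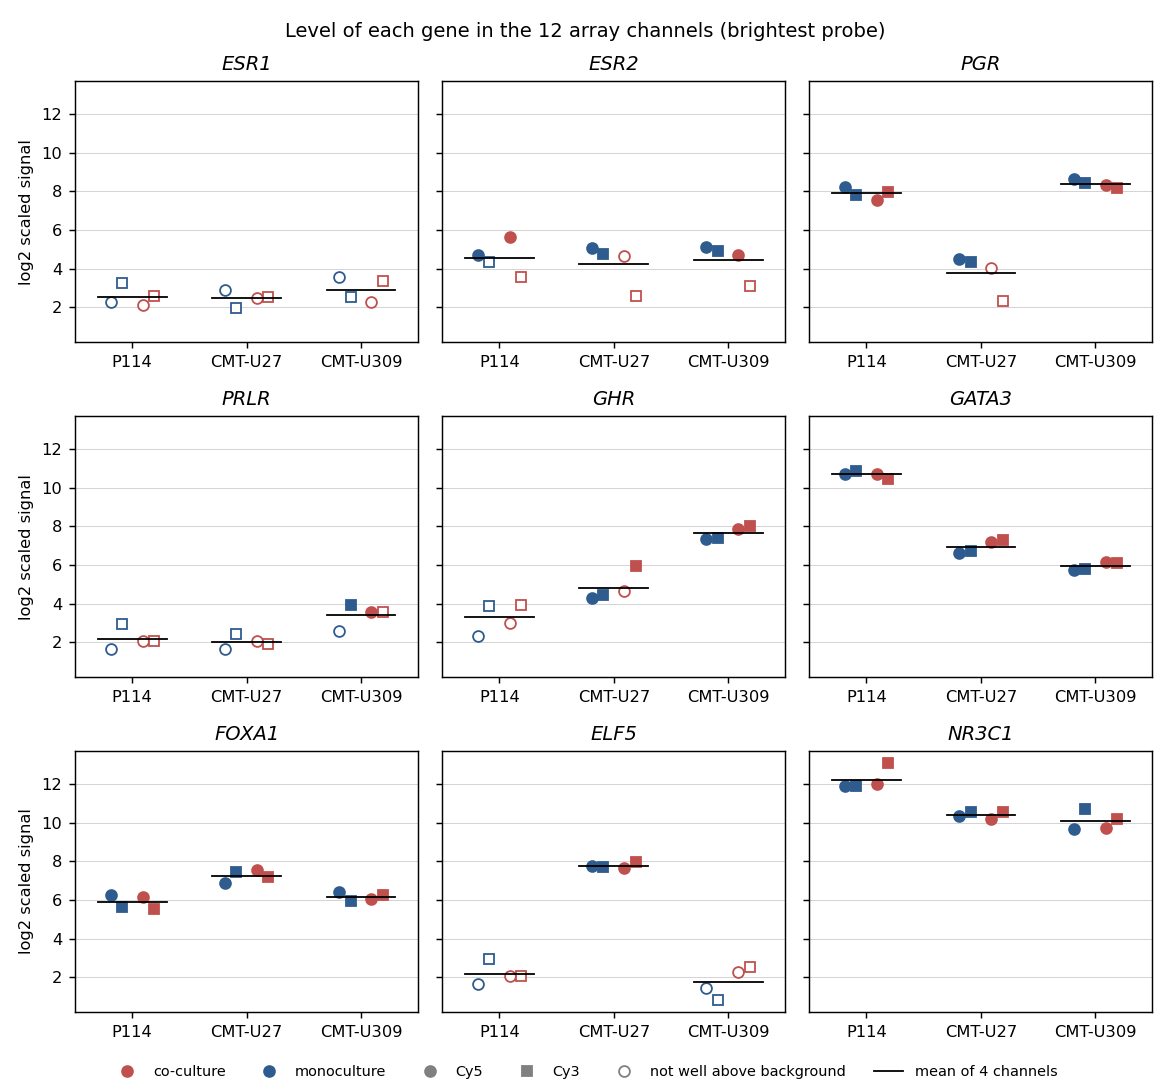
Log2 scaled signal (vertical axis) of the brightest probe of each gene in the 12 channels, by cell line; red is co-culture, blue monoculture, circles Cy5, squares Cy3, open symbols are channels not well above background and the line is the mean of 4 channels. GATA3 and NR3C1 were highest in P114, ELF5 was measured only in CMT-U27, GHR was highest in CMT-U309, and PGR was high in P114 and CMT-U309 and low in CMT-U27.

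P114 had the most GATA3 and NR3C1, CMT-U27 had the most FOXA1 and was the only line with measured ELF5, and CMT-U309 had the most GHR. PGR was present in P114 and CMT-U309 and lowest in CMT-U27. Lines were compared by limma over their 6 RNA samples with culture as a term. A difference was called at a Benjamini-Hochberg adjusted p under 0.05 and a fold over 2. Each line had 1 RNA sample per culture condition. The p-values between lines thus measure against the spread left after line and culture, drawn toward that of probes of like intensity. They do not measure against repeated cultures of a line. Of the 10 member probes that passed the intensity filter, 7 were called between CMT-U27 and P114, where 24.2% of all 40873 tested probes were. Between CMT-U309 and P114 4 of 10 were called, against 14.5% of all probes, and between CMT-U27 and CMT-U309 6 of 10, against 28.9%. These counts are of probes, and both NR3C1 probes are among the calls in each pair with P114. The calls between CMT-U27 and CMT-U309 include PRLR, for which no order among lines is read below. They also include GATA3, which lay at the fold threshold. The F-test of any difference between lines passed for 8 of 10, against 55.1% of all probes. Over all tested probes the median log2 difference was -0.15 for CMT-U27 minus P114, -0.15 for CMT-U309 minus P114 and 0.04 for CMT-U27 minus CMT-U309, so that a difference of a member is to be read against these shifts. Of the probes called, 52.0%, 47.1% and 54.2% were higher in the line named first. Without scaling the medians were 0.30, 0.63 and -0.28 and these shares 79.0%, 92.9% and 34.3%. With scaling to the 75th percentile the shares were 41.8%, 53.5% and 40.4%, and under normexp 52.7%, 60% and 48.6%.

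Among the estrogen receptors no difference between lines was measured. No channel had the ESR1 probe well above background, and in 7 of the 12 the scanner software had put a surrogate value in place of its signal. Its log2 signals were 2.77 and 2.35 in P114 (monoculture, then co-culture), 2.44 and 2.53 in CMT-U27, and 3.04 and 2.81 in CMT-U309. All of these lie below what the arrays could measure, so that they set no order among the lines. The first ESR2 probe had 10 surrogate values and was the member probe that failed the intensity filter. The second ESR2 probe was well above background in 7 of 12 channels. Its levels were 4.52 (monoculture) and 4.62 (co-culture) in P114, 4.91 and 3.62 in CMT-U27, and 5.02 and 3.91 in CMT-U309. The RNA samples of the 3 lines overlapped, and the largest difference, CMT-U27 below P114 by a log2 value of -0.31 ± 0.38 (SE), had a limma adjusted p of 0.544.

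PGR separated CMT-U27 from the other lines. Its log2 levels were 8.03 (monoculture) and 7.77 (co-culture) in P114, 8.55 and 8.27 in CMT-U309, and 4.42 and 3.16 in CMT-U27. Neither RNA sample of CMT-U27 came near those of the other lines, and there it was well above background only in the 2 monoculture channels. The level was 24.6-fold lower in CMT-U27 than in CMT-U309 (log2 difference -4.62 ± 0.26, limma adjusted p = 4.28e-07) and 17.2-fold lower than in P114 (-4.11 ± 0.26, adjusted p = 1.12e-06). CMT-U309 and P114 did not differ past the threshold (0.51 ± 0.26, adjusted p = 0.181), other than without scaling (1.29). With monoculture RNA alone, where CMT-U27 was measured, the differences were -4.13 and -3.61.

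Of the receptors of growth hormone and prolactin, GHR was highest in CMT-U309. The log2 levels of GHR were 7.35 (monoculture) and 7.95 (co-culture) in CMT-U309, 4.36 and 5.29 in CMT-U27, and 3.10 and 3.47 in P114. The 3 lines did not overlap. All 4 channels of CMT-U309 and 3 of 4 of CMT-U27 were well above background, and none of P114. GHR was 7.08-fold higher in CMT-U309 than in CMT-U27 (limma adjusted p = 1.33e-05) and at least 10.4-fold higher than in P114. For CMT-U27 over P114 the bound was at least 1.48-fold (adjusted p = 0.00100, and 0.0515 without the second P114 array). Such a bound sets the mean of the brighter line against a floor in the dimmer one. The floor of a channel is its lowest signal that counted as well above background, or the signal of the probe where higher. Bounds used processed signals after loess normalization within arrays and quantile normalization of mean intensity between arrays, not the median-scaled levels. An adjusted p beside a bound is that of the median-scaled fit. Under normexp background correction, which adds an offset of 50 to every signal, the CMT-U27 to CMT-U309 difference was -0.92 and no longer past a fold of 2, with an adjusted p of 9.60e-07. The call of CMT-U27 over P114 was lost there as well (0.20), and in Cy3 channels only (1.28, adjusted p = 0.0655).

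PRLR was well above background in 2 channels, both of CMT-U309. Its log2 signals were 3.26 and 3.58 there, 2.04 and 1.98 in CMT-U27, and 2.31 and 2.06 in P114. The signal of CMT-U309 was below the floor at which the other lines could have been measured, so that no fold is given and no order among the lines is read. The fit called the difference between CMT-U27 and CMT-U309 (-1.41 ± 0.45, limma adjusted p = 0.0274). The difference between CMT-U309 and P114 had an adjusted p of 0.0674. Without the second P114 array the first of these calls had an adjusted p of 0.144, without the second CMT-U27 array 0.0935 and without the first CMT-U309 array 0.213. It was lost in Cy5 channels only (-1.23), in Cy3 channels only (-1.59) and under normexp (-0.11) too. The second difference was called under quantile normalization (1.58), without scaling (2.01), without a variance trend (adjusted p = 0.0248), and without the first P114 array (1.56) or the second CMT-U309 array (1.55).

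Of the luminal transcription factors, GATA3 was highest in P114. Its log2 levels were 10.79 (monoculture) and 10.59 (co-culture) in P114, 6.69 and 7.23 in CMT-U27, and 5.77 and 6.14 in CMT-U309. All 12 channels were well above background, and the lines did not overlap. P114 exceeded CMT-U27 by 13.3-fold (log2 difference of CMT-U27 minus P114 -3.73 ± 0.20, limma adjusted p = 3.57e-07) and CMT-U309 by 26.6-fold (-4.73 ± 0.20, adjusted p = 1.29e-07). CMT-U27 stood above CMT-U309 by a log2 value of 1.00 ± 0.20 (adjusted p = 0.00256), which is at the fold threshold itself. That last call was lost under quantile normalization (0.98), scaling to the 75th percentile (0.79), no scaling (0.69), normexp (0.36) and Cy5 channels only (0.95), and without the second array of CMT-U27 (0.99) or of CMT-U309 (0.96), with CMT-U27 the higher in each.

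FOXA1 was highest in CMT-U27. Levels were 7.16 and 7.36 there (monoculture, then co-culture), 6.20 and 6.15 in CMT-U309, and 5.95 and 5.84 in P114. Both CMT-U27 samples lay above all others, by 2.58-fold over P114 (log2 1.37 ± 0.21, limma adjusted p = 0.000444) and by 2.12-fold over CMT-U309 (1.09 ± 0.21, adjusted p = 0.00163). CMT-U309 and P114 did not differ past the threshold (0.28 ± 0.21, adjusted p = 0.343), other than without scaling (1.06). The call against CMT-U309 was lost with scaling to the 75th percentile (0.87), no scaling (0.78), normexp (0.41) or Cy5 channels only (0.96), and without the first array of CMT-U27 (0.86) or of CMT-U309 (0.93). Under normexp the difference to P114 was 0.59, also short of a fold of 2.

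ELF5 was measured in CMT-U27 alone, in all 4 channels, with levels of 7.73 in monoculture and 7.81 in co-culture. In P114 the signals were 2.29 and 2.04 and in CMT-U309 1.13 and 2.40, none of them well above background. CMT-U27 was at least 10.2-fold higher than P114 (limma adjusted p = 3.03e-06) and at least 21.9-fold higher than CMT-U309 (adjusted p = 1.59e-06). The 4 channels of CMT-U27 spread little (SD 0.15).

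The glucocorticoid receptor NR3C1 was highest in P114 by both of its probes. With the first probe the levels were 11.88 and 12.55 in P114, 10.43 and 10.35 in CMT-U27, and 10.17 and 9.96 in CMT-U309. With the second they were 8.81 and 9.10 in P114, 7.49 and 6.69 in CMT-U27, and 7.35 and 7.14 in CMT-U309. P114 did not overlap the other lines by either probe. By the first probe, CMT-U27 was 3.55-fold lower than P114 (log2 difference -1.83 ± 0.20, limma adjusted p = 5.19e-05) and CMT-U309 4.43-fold lower (-2.15 ± 0.20, adjusted p = 3.35e-05). The second probe gave -1.87 ± 0.24 and -1.71 ± 0.24. CMT-U27 and CMT-U309 did not differ past the threshold by either probe, and the probes differed in which of these lines was the higher (0.32 ± 0.20 by the first and -0.16 ± 0.24 by the second).

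**Figure D2:**
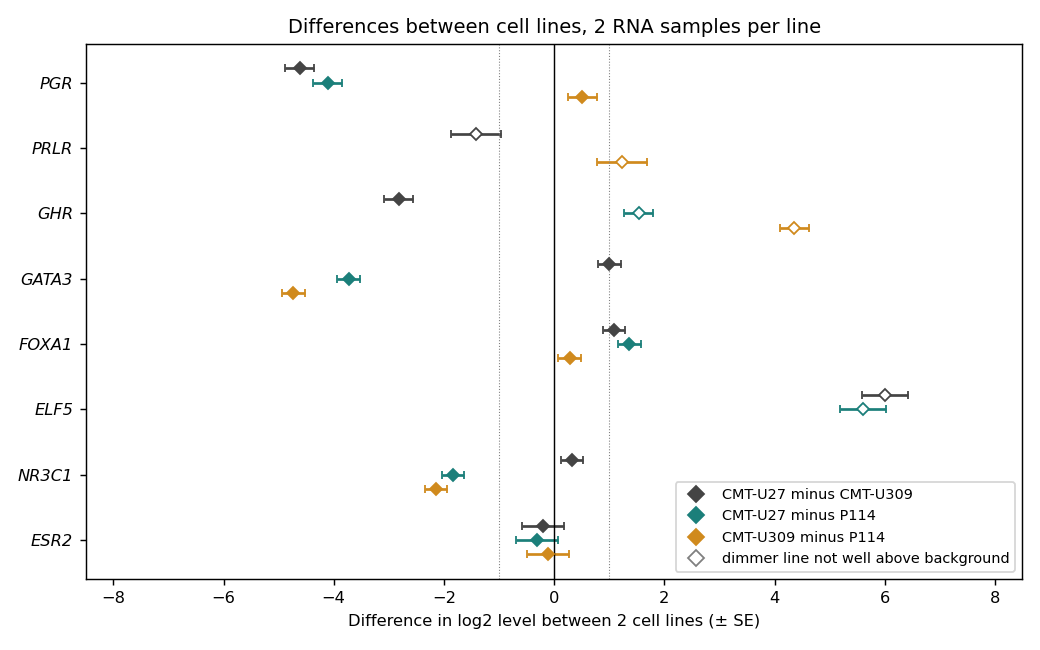
Difference in log2 level between cell lines (horizontal axis, ± SE from limma) for the brightest probe of each gene with a measured channel; colors are the 3 pairs of lines, open symbols have a dimmer line that was not well above background and dotted lines mark a fold of 2. PGR and GHR were lower in CMT-U27 than in CMT-U309, GATA3 and NR3C1 were lower in both other lines than in P114, ELF5 was higher in CMT-U27, and the 3 ESR2 differences lay within 1 SE of 0.

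Over the 12 channels, the members that were measured in all channels of a line followed a few patterns. Channels of a line share their slide, and those of an RNA sample share the RNA, so that these correlations describe 3 lines rather than 12 samples. GATA3 ran with NR3C1 (Pearson r = 0.90) and against GHR (-0.82). ELF5 ran with FOXA1 (0.86) and against PGR (-0.97). ELF5 was not well above background in the 8 channels of P114 and CMT-U309, nor PGR in 2 of CMT-U27, nor GHR in the 4 of P114 and 1 of CMT-U27, so that correlations with these genes, and the genes closest to them, rest in part on signals that were not measured. Among 8803 other gene symbols measured in at least 1 line, the closest to PGR were ABAT, FAT4 and ZEB1 (all r = 0.99), and the closest to ELF5 were MBOAT1, EPS8L1 and PI4KB (all 0.99). For GATA3 they were CA9, WNT3 and AMZ2, with r of 0.99 or more. For GHR, the closest were DSEL, MYH10 and ZIC2 (all 0.97), for FOXA1 they were ADRM1, MRPL36 and ITPRIPL1 (all 0.96), and for NR3C1 they were MPZL1, TLE1 and PABPC1 (0.96 to 0.97).

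Lists of genes that act with these receptors or mark the cells that carry them were read through the brightest probe of each symbol. Among the 11605 symbols tested, 42.6% were called in at least 1 pair of lines. By pair, 15.3% were higher and 11.6% lower in CMT-U27 than in P114, 8.03% higher and 7.42% lower in CMT-U309 than in P114, and 18% higher and 14.1% lower in CMT-U27 than in CMT-U309. The median log2 difference over all symbols was -0.04, -0.09 and 0.08 in these pairs.

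Markers of luminal cells were mostly higher in CMT-U27. Of 12 tested, 7 were higher and 1 lower in CMT-U27 than in P114 (median log2 difference 3.38), and 9 were higher and 2 lower than in CMT-U309 (median 4.82). CMT-U309 had 1 higher and 6 lower than P114 (median -0.83). KRT19, a simple epithelial keratin, was 2575-fold higher in CMT-U27 than in CMT-U309 (log2 levels 16.03 and 4.70, limma adjusted p = 5.68e-10), with 3 of 4 channels of the dimmer line well above background. EPCAM, an epithelial adhesion molecule, was 429-fold higher (15.42 and 6.68). EHF, an epithelial ETS factor related to ELF5, was 321-fold higher (12.79 and 4.47), with 2 of 4 dim channels measured. PROM1, a surface marker of luminal progenitors, was 99.2-fold higher in P114 than in CMT-U309. MUC1 went the other way, with levels of 8.63 in P114 and 8.15 in CMT-U309 against 3.62 in CMT-U27. No probe of KRT8, KRT18 or KRT7 was tested. The summed signal of the list ran from 126327 to 148609 in CMT-U27, from 14034 to 14680 in P114 and from 10168 to 11372 in CMT-U309. The brightest probes weigh most in this sum. XBP1, called in no pair, was the brightest of the list in P114 (13.27) and CMT-U309 (13.25). In CMT-U27 the brightest were KRT19 and EPCAM.

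Mesenchymal markers had the opposite order. Of 9 tested, 7 were lower and 0 higher in CMT-U27 than in P114 (median -4.64), and 6 were lower and 0 higher than in CMT-U309 (median -5.88). In CMT-U309, 4 were higher and 2 lower than in P114 (median 0.85). Collagen genes and matrix proteoglycans led. COL1A1 was 5891-fold lower in CMT-U27 than in CMT-U309 (log2 levels 3.69 and 16.22, limma adjusted p = 1.26e-10), COL3A1 4274-fold, DCN 3971-fold and LUM 355-fold. For COL1A1, COL3A1 and DCN only 1 of the 4 channels of CMT-U27 was well above background. The summed signal was 6811 to 9757 in CMT-U27, 190074 to 274556 in P114 and 388080 to 485943 in CMT-U309. PGR was thus low and ELF5 high in the line with the least summed mesenchymal and the most summed luminal signal. The part of either in the receptor differences was not tested.

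Basal and myoepithelial markers were split. Of 11 tested, 1 was higher and 3 lower in CMT-U27 than in P114 (median -0.37), and 1 was higher and 6 lower than in CMT-U309 (median -1.53). In CMT-U309, 3 were higher and 0 lower than in P114 (median 0.58). VIM, an intermediate filament protein that is also a mesenchymal marker, was 102-fold higher in P114 than in CMT-U27 (limma adjusted p = 9.59e-10). SNAI2, a repressor of epithelial genes, was 79.7-fold higher and the peptidase MME 25.8-fold higher in CMT-U309 than in CMT-U27. MYLK, the myosin light chain kinase, was 21.8-fold higher in CMT-U27 than in P114.

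Genes of the estrogen and progesterone response differed between lines in both directions. In at least 1 pair 8 of 15 were called, where 42.6% of all symbols were. In CMT-U27, 3 were higher and 4 lower than in P114 (median -0.04), and 4 were higher and 1 lower than in CMT-U309 (median 0.20). CMT-U309 had 0 higher and 4 lower than P114 (median -0.47). IGFBP4, which binds insulin-like growth factors, was 74.0-fold higher in P114 than in CMT-U27 (limma adjusted p = 3.79e-09). The lysosomal protease CTSD was 21.9-fold higher and the survival protein BCL2 7.71-fold higher in CMT-U27 than in CMT-U309. MYB was at least 4.84-fold higher in CMT-U27 than in P114, where it was not well above background. GREB1 and TFF1, classical targets of estrogen, were measured in all channels and called in no pair. In P114, CMT-U27 and CMT-U309, in that order, the log2 levels were 6.49, 5.87 and 6.65 for GREB1 and 7.47, 6.99 and 7.44 for TFF1.

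The list of prolactin and growth hormone signaling and milk genes, which holds the hormone PRL itself, had 11 genes tested. In at least 1 pair 5 were called, PRL among them, where 42.6% of all symbols were. Of the 11, 1 was higher and 3 lower in CMT-U27 than in P114 (median -0.54). Between CMT-U309 and P114 0 were called (median -0.03). In CMT-U27, 1 was higher and 3 lower than in CMT-U309 (median -0.39). IGF1R, the receptor of insulin-like growth factor, was 15.7-fold higher in P114 than in CMT-U27, and the kinase JAK2 was 2.64-fold higher in CMT-U27 than in P114. The transcription factors STAT5A and STAT5B were called in no pair. Of the milk protein genes, CSN2 was measured in no channel, and LALBA in 5 of 12.

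Of 10 glucocorticoid response genes, 4 were called in at least 1 pair, where 42.6% of all symbols were. In CMT-U27, 3 were higher and 0 lower than in P114 (median 0.45), and 3 were higher and 0 lower than in CMT-U309 (median -0.11). CMT-U309 had 1 higher and 0 lower than P114 (median 0.22). The receptor chaperone FKBP5 was 4.40-fold higher in CMT-U309 than in P114, and the transcriptional regulator TSC22D3 was 3.58-fold higher in CMT-U27 than in P114. These are the lines in which NR3C1 was the lower. DUSP1, SGK1 and ZBTB16, called in no pair, had their highest levels in P114 (6.61, 7.91 and 11.21). PER1, also called in no pair, was lowest there (6.32). Whether these genes follow NR3C1 was not tested. NFKBIA, the inhibitor of NF-kappa-B, was 3.39-fold higher in CMT-U27 than in CMT-U309. HSD11B2, which inactivates cortisol, was at least 2.45-fold higher in CMT-U27 than in P114.

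Of the other nuclear receptors, 5 of 15 were called in at least 1 pair, where 42.6% of all symbols were. The counts were 2 higher and 1 lower in CMT-U27 than in P114 (median 0.28), 0 higher and 2 lower in CMT-U309 than in P114 (median 0.07), and 3 higher and 1 lower in CMT-U27 than in CMT-U309 (median 0.41). NR3C2, the mineralocorticoid receptor and closest relative of NR3C1, was at least 3.69-fold higher in CMT-U27 than in P114. PPARG was 4.98-fold and the estrogen-related receptor ESRRA 2.81-fold higher in CMT-U27 than in CMT-U309, and NR2F2 was 3.53-fold higher in P114 than in CMT-U309.

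Coregulators and chaperones of steroid receptors had 3 of 10 called in at least 1 pair, where 42.6% of all symbols were. Of the 10, 1 was higher and 0 lower in CMT-U27 than in P114 (median 0.26). In CMT-U309, 1 was higher and 1 lower than in P114 (median -0.36). In CMT-U27, 3 were higher and 0 lower than in CMT-U309 (median 0.58). CITED1, a coactivator of the estrogen receptor, was at least 5.84-fold higher in CMT-U27 than in P114. The chaperones HSP90AA1 and HSP90AB1 were 2.43-fold and 2.01-fold higher in CMT-U27 than in CMT-U309. For 7 genes of estrogen synthesis and inactivation the median log2 differences were 0.18 (CMT-U27 minus P114), -0.23 (CMT-U309 minus P114) and 0.35 (CMT-U27 minus CMT-U309). CYP19A1, the aromatase, was measured in no channel.

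**Figure D3:**
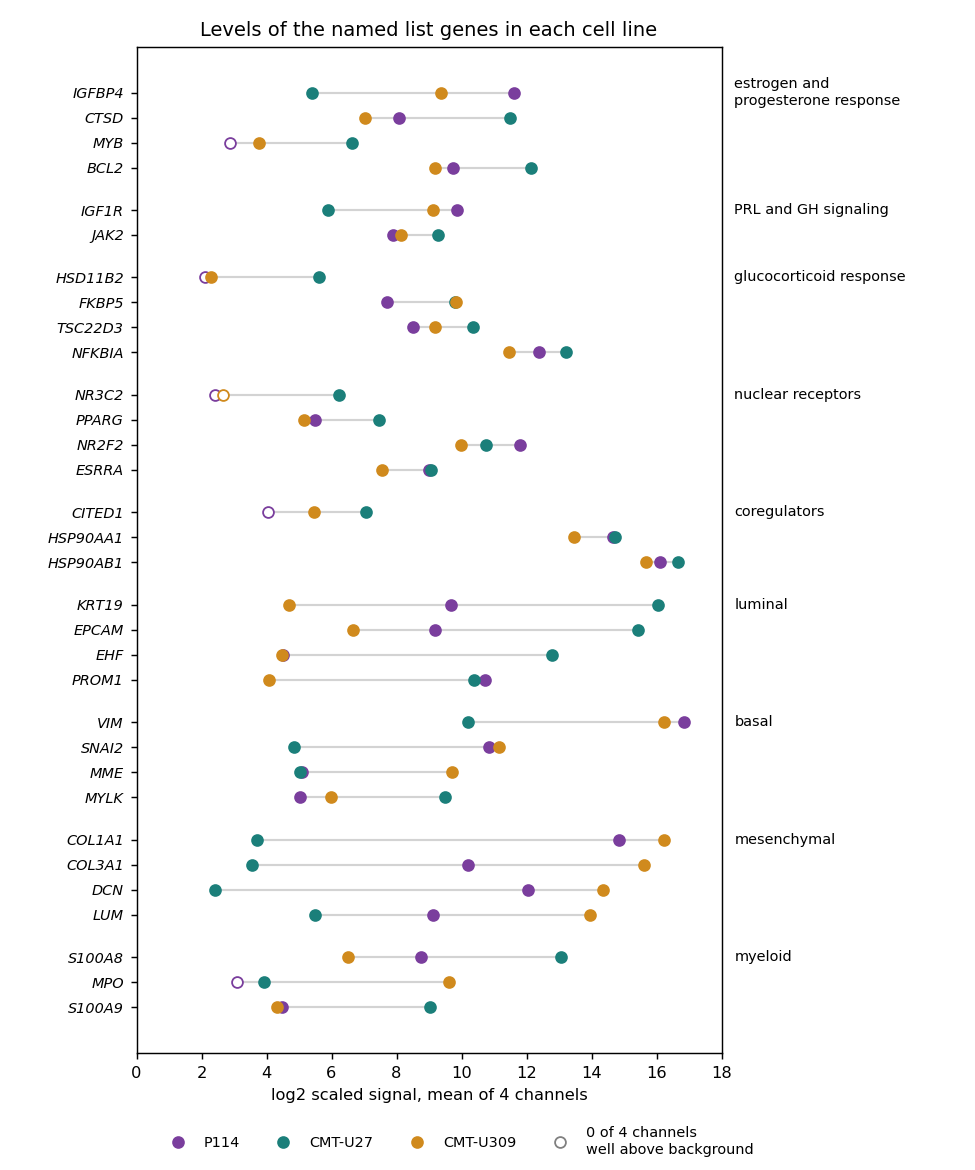
Log2 scaled signal (horizontal axis, mean of 4 channels) in each cell line for genes named from the lists, with 1 line per gene; open symbols are lines in which 0 of 4 channels were well above background. KRT19, EPCAM and EHF were highest in CMT-U27 and COL1A1, COL3A1, DCN and LUM in CMT-U309.

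Co-culture with MDSCs moved no member past the thresholds. Limma tested the mean log2 ratio of the 3 lines against 0, with the methods' thresholds of an unadjusted p under 0.05 and a fold over 2. Of the 10 tested member probes 0 were called, where 1.22% of all probes (421 higher, 78 lower) were. Over all probes 4062 had an unadjusted p under 0.05, 0 passed an adjusted p of 0.05, and the methods' t-test also gave 0. The smallest two-sided p that exact sign flips of 3 lines allow is 0.25. Nothing in the labels says that the lines were cultured more than once. The limma p-values of this comparison measure the spread between these 3 lines, drawn toward that of probes of like intensity. They do not measure repeated cultures. For PGR the unadjusted p was 0.020 by limma and 0.21 by the t-test on the 3 lines.

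PGR was lower in co-culture on 6 of 6 arrays. Its log2 ratios were -0.30 and -0.22 on the P114 arrays (co-culture in Cy5, then in Cy3), -0.33 and -2.18 in CMT-U27, and -0.12 and -0.45 in CMT-U309. Apart from the -2.18, these ratios were small. That array and its dye-swap had no co-culture channel of CMT-U27 well above background, so that the size in this line was not measured. The mean over lines was -0.60 ± 0.22 (limma adjusted p = 0.498). Without CMT-U27 the mean of the other lines was -0.27. It was -0.91 without the first and -0.29 without the second CMT-U27 array, and -0.11 under normexp. With the sign of the first P114 array turned, PGR was lower on 5 of 6 arrays.

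GHR had a positive mean ratio of 0.63 ± 0.21 (limma adjusted p = 0.498) and was higher in co-culture on 5 of 6 arrays. Its ratios were 0.50 and 0.69 in CMT-U309, the line in which it was fully measured. In CMT-U27 they were 0.21 and 1.65, and in P114, where it was not well above background, -0.88 and 1.62. The ratios with co-culture RNA in Cy3 were larger than those with co-culture RNA in Cy5 in every line (means 1.32 and -0.06). Without the first P114 array, which leaves P114 only with co-culture RNA in Cy3, the mean was 1.05 and passed the methods' thresholds. It was 0.21 without the second P114 array, 0.39 without the second CMT-U27 array and 0.12 under normexp, none of which passed.

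The ratio of the second ESR2 probe differed between dye orientations. Its ratios were -1.11, -2.48 and -2.04 on the arrays of P114, CMT-U27 and CMT-U309 with co-culture RNA in Cy3, and 1.31, -0.09 and -0.19 in the opposite orientation. The mean over lines was -0.76 ± 0.31 (limma adjusted p = 0.498). It was measured in 5 of 6 monoculture and 2 of 6 co-culture channels, none of the latter in Cy3. The part of the channels in this ratio was not tested. Without the first P114 array the mean was -1.17 and passed the methods' thresholds, as it did without P114 (-1.20). It also passed without the first array of CMT-U27 (-1.16) or of CMT-U309 (-1.07). Without its first array, a line is left only with co-culture RNA in Cy3, the orientation of the lower ratios. Without the second array of P114 the mean was -0.36, without that of CMT-U27 -0.37 and without that of CMT-U309 -0.46, and it was -0.053 under normexp, none of these past the thresholds.

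GATA3 differed in sign between lines. Its ratios were -0.15 and -0.26 in P114, 0.44 and 0.64 in CMT-U27, and 0.36 and 0.36 in CMT-U309. Both arrays of a line had the same sign in each of the 3 lines, and the mean of 0.23 ± 0.17 had a limma adjusted p of 0.604. With the sign of the first P114 array turned, the P114 arrays differed in sign. Whether P114 differed from the other lines was not tested.

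For the other members, the ratios changed sign within lines or were not measured. FOXA1 had ratios of 0.49 and -0.71 in P114, 0.11 and 0.29 in CMT-U27, and 0.10 and -0.20 in CMT-U309, with a mean of 0.01 ± 0.17 (limma adjusted p = 0.982). ELF5 had ratios of -0.07 and 0.23 in CMT-U27, the line in which it was measured. The first NR3C1 probe had 0.14 and 1.21 in P114, -0.38 and 0.21 in CMT-U27, and -0.98 and 0.57 in CMT-U309, with a mean of 0.13 ± 0.16 (adjusted p = 0.770). By the second probe the mean was -0.24 ± 0.20 (adjusted p = 0.644). Both NR3C1 probes were lower on average with co-culture RNA in Cy5 (-0.41 and -0.97) and higher with it in Cy3 (0.66 and 0.49). PRLR had -0.35 and 0.98 in CMT-U309 and was not measured in the other lines.

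**Figure D4:**
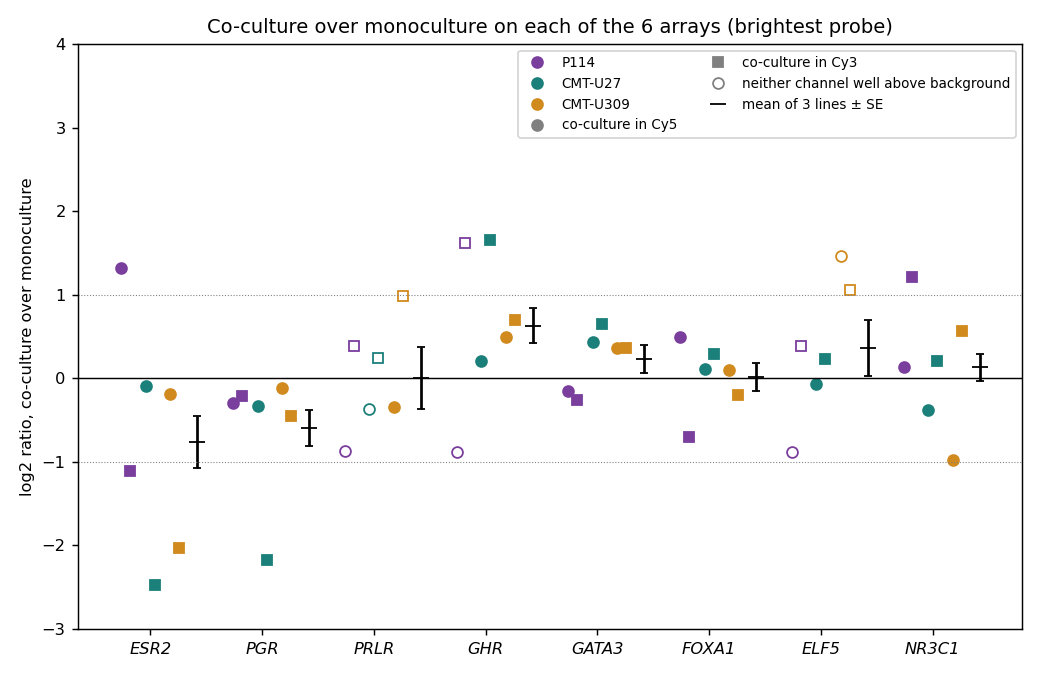
Log2 ratio of co-culture over monoculture (vertical axis) on each of the 6 arrays for the brightest probe of each gene but ESR1; colors are lines, circles have co-culture RNA in Cy5 and squares in Cy3, open symbols have neither channel well above background and black bars are the mean of the 3 lines ± SE. PGR lay below 0 on all 6 arrays, with co-culture RNA in Cy3 the ratios of GHR were higher and those of ESR2 lower than in Cy5, and GATA3 lay below 0 in P114 and above 0 in the other lines.

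In the gene lists, the co-culture comparison called 2 genes, where 0.741% of all symbols were called. SOCS3, the feedback inhibitor of JAK and STAT signaling, passed the methods' thresholds downward (log2 ratio -1.02 ± 0.27, limma adjusted p = 0.498, lower on 5 of 6 arrays), and so did the basal keratin KRT17 (-1.02 ± 0.29, adjusted p = 0.498, lower on 5 of 6). Like ESR2, both were dim, with 3 of 6 and 1 of 6 co-culture channels well above background against 5 of 6 monoculture channels. The other 8 lists had 0 called in either direction. Median log2 ratios were 0.04 for the estrogen and progesterone response, 0.04 for prolactin and growth hormone signaling, 0.10 for the glucocorticoid response, -0.04 for other nuclear receptors, -0.09 for coregulators, 0.03 for estrogen synthesis, -0.08 for luminal, 0.12 for basal and 0.07 for mesenchymal genes, beside 0.0019 over all symbols.

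Markers of myeloid cells, the kind that was kept in the insert, had 0 of 14 genes called for co-culture and a median log2 ratio of 0.11. Their summed signal was higher in co-culture on both arrays of CMT-U27 (13716 against 7906 and 13759 against 8198). Most of the sum in this line was the signal of the S100A8 probe (mean log2 level 13.06). In P114 the summed signal was higher on the first array (1956 against 1665) and lower on the second (1606 against 1854). In CMT-U309 it was likewise higher on the first (2603 against 2222) and lower on the second (2410 against 2539). The part of these markers in the ratios of the members was not tested. ITGAM, LYZ and SPI1 were measured in no channel, and no probe of CD33 or CD14 was tested. Between lines, 5 of 14 genes were called in at least 1 pair, against the 42.6% of all symbols. In CMT-U27, 2 were higher and 1 lower than in P114 (median 0.01) and 2 higher and 3 lower than in CMT-U309 (median 0.09), and CMT-U309 had 1 higher and 1 lower than P114 (median -0.21). S100A8 and S100A9, which epithelial cells can also express, were 94.3-fold and 26.1-fold higher in CMT-U27 than in CMT-U309, and MPO was at least 42.2-fold higher in CMT-U309 than in P114.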

How the data were processed

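RNA of the 3 lines was compared on two-color arrays in dye-swap. The authors deposited the Feature Extraction output (version 10.10.1.1 in the file headers) with background-subtracted, dye-normalized processed intensity of each spot, and a table of log10 ratios turned to co-culture over monoculture, used as an alternative. The median of every channel was brought to a shared value, outlier-flagged spots were left out, probes that nowhere exceeded an intensity of 10 were dropped, as in the methods, and log2 levels and ratios were averaged over spots and dye-swaps. Limma 3.58.1 in R 4.3.3 (lmFit, eBayes with trend) tested 40873 probes. Both fits were also run on simulated data with independent noise. The simulation held no dye difference, so that it cannot speak to arrays of a dye-swap that disagree. Replicate numbers of the labels mark the dye orientation. The members and lists were chosen with earlier results of these data known. From each list, up to 4 genes with the largest difference between lines were named. These had to be well above background in all 4 channels of the higher line. Any gene called for co-culture was named as well. A few others (MUC1, XBP1, GREB1, TFF1, STAT5A, STAT5B, PRL, CSN2, LALBA, PIP, PER1, DUSP1, SGK1, ZBTB16, CYP19A1) were chosen after their values were seen. Results of some listed genes are not reported here. The number of arrays limits precision.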

Additional observations from a re-analysis of the deposited data

Results flagged for a closer look

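GATA3 was singled out because both arrays of P114 had a negative log2 ratio of co-culture over monoculture and both arrays of each other line a positive one. The line means of the log2 ratio were -0.205 (P114), 0.541 (CMT-U27) and 0.362 (CMT-U309). The difference between lines was not tested. With the sign of the first P114 array turned, whose ratios ran against those of the second, the P114 arrays differed in sign. Whether the dyes of that array are as labelled was not tested.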

How the results depend on the processing

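The co-culture counts depended on the processing and on single arrays. The main fit gave 499 probes past the methods' thresholds and 0 past an adjusted p. Normexp gave 3 past the thresholds, only probes well above background 37 and the t-test on the 3 line means 118. With the dye orientation as a replicate block, the 6 arrays gave 542 past the thresholds and 6 past an adjusted p, and 5 past it without the orientation. The block changed no call of a member's ratio, and among the level differences that of PRLR between CMT-U309 and P114 (1.23, adjusted p = 0.0252). Without single arrays the counts ran from 107 to 2547 and from 0 to 22, the highest without the first P114 array and the lowest past the thresholds without the second (1163 without the first CMT-U27 array, 1641 without the first and 144 without the second CMT-U309 array). Without P114 they were 2678 and 6361, without CMT-U27 215 past the thresholds, and without CMT-U309 319 and 25. With the sign of the first P114 array turned, an alternative chosen after seeing the data, they were 2464 and 3280, ESR2 passed the thresholds (-1.20) and PGR (-0.50) and GHR (0.92) kept their sign.

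Between lines, normexp with its offset gave 3618, 2000 and 4252 called probes against 9894, 5943 and 11826 for CMT-U27 minus P114, CMT-U309 minus P114 and CMT-U27 minus CMT-U309. No scaling gave 11920 for CMT-U309 minus P114, and Cy3 channels only gave 13569 past the F-test against 22511. The causes of these shifts were not tested.

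Of 413 recomputed level differences of members 356 kept direction and call, 13 changed sign, all of ESR2, 24 lost and 8 gained a call, and 12 values without a test moved. ESR2 for CMT-U27 minus P114 was 0.047 under normexp, 0.16 without scaling and -0.75 to 0.13 without single arrays. For CMT-U309 minus P114 it was 0.013 under normexp, 0.67 without scaling, 0.039 in Cy3 only and -0.54 to 0.33 without single arrays. For CMT-U27 minus CMT-U309 it was 0.034 under normexp, 0.046 under quantile normalization and -0.64 to 0.24 without single arrays.

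Of 164 recomputed co-culture ratios of members 141 kept direction and call, 6 gained a call and 17 changed sign, none of them called. PRLR was -0.017 under normexp, -0.020 without scaling, -0.22 to 0.23 without single arrays (lowest without the second and highest without the first of CMT-U309) and -0.15 without CMT-U309. FOXA1 was -0.011 from the deposited log10 ratios and without scaling, -0.19 to 0.21 without single arrays (lowest without the first and highest without the second of P114), -0.079 without CMT-U27 and -0.15 with the first P114 array turned. NR3C1 (first probe) was -0.13 to 0.39 without single arrays (lowest without the second and highest without the first of CMT-U309) and -0.14 without P114, and ELF5 was -0.084 without CMT-U309. Signal over background limits ESR1, ESR2 and PRLR in every line, PGR in CMT-U27, GHR in P114, and ELF5 in P114 and CMT-U309.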
